A study of Mus musculus with 10 samples.

Results

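The 9 genes described here encode surface proteins, or the partner of a surface protein, by which mature B cells are recognised: Ms4a1 (the CD20 antigen), Cd24a (CD24), Fcer2a (CD23), Cr2 (CD21), Cd55, Cd37, Cd52, Cd180 and Ly86. They were chosen by name, with earlier results of these data known. All 9 were measured, out of 19937 genes on the arrays with a probe set that carries that gene's symbol alone. Each of the 9 had exactly 1 such probe set. RNA came from J558, a plasma-cell tumour (myeloma) line of the mouse, and was hybridised to Affymetrix whole-transcript arrays. The groups were cells transduced with the MSCV retroviral vector carrying the Pax5 G183S mutant (4 cultures), the same vector with Pax5 WT (3 cultures), and the empty vector (3 cultures). G183S replaces a glycine of Pax5 by a serine. All groups carried the vector's puromycin resistance and GFP, were selected in puromycin for 5 to 7 days and were then sorted for GFP and IgM. The constructs were driven by a viral promoter in 1 tumour line, so their level is not that of the endogenous gene in a B cell. The sample titles call the cultures biological replicates, and the design text calls them independent. The comparisons ask which of these B-cell genes each construct changed, and whether mutant and wild type differed.

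As background, Pax5 is the transcription factor that holds cells in the B lineage, switching on many B-cell surface proteins. It is turned off when a B cell becomes an antibody-secreting plasma cell, and several of these surface proteins are lost at that step. CD20 spans the membrane several times and is the target of therapeutic antibodies. CD24 and CD52 are small, heavily glycosylated proteins held by a lipid (GPI) anchor, and CD23 is the low-affinity receptor for IgE. CD21 binds complement fragments on antigen, while CD55 protects a cell from its own complement. CD37 is a tetraspanin, a membrane organiser of leukocytes. CD180, also called RP105, resembles a Toll-like receptor without the signalling tail and reaches the surface bound to MD-1, the product of Ly86.

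Values are log2 expression per probe set, so a difference of 1 unit is a doubling of signal. Groups of 3 or 4 arrays limit how precisely any of them is known. Array medians lay between 6.81 and 6.94 log2 units. Arrays of the same group had a Pearson correlation of 0.985 to 0.998 over the genes, and arrays of different groups one of 0.978 to 0.995. Pax5 read 10.22, 10.36, 9.38 and 9.96 in the G183S arrays, 10.67, 10.09 and 10.05 in the WT arrays, and 7.10, 6.84 and 7.01 in the empty-vector arrays. Plasma-cell genes such as Xbp1 (12.42 to 13.06 over all arrays) and Jchain (12.01 to 13.14) were bright, whereas Igha, the constant region of IgA, read 6.61 to 7.61. Tnfrsf17 averaged 8.99 with G183S, 10.29 with WT and 11.07 with empty vector, and Sdc1 10.26, 10.77 and 11.41. Prdm1, Irf4, Pou2af1 and Slamf7 averaged higher with WT than with empty vector. Of 10 plasma-cell markers, 4 with G183S and 1 with WT had an unadjusted p under 0.05 in limma, and 0 were called. The mean level of 10 plasma-cell markers was 10.67 to 11.47 in the G183S arrays, 11.16 to 11.56 in the WT arrays and 11.40 to 11.54 in the empty-vector arrays. Of 13 myeloid and 11 T-cell markers, 1 each (Cd68 at 9.75 and Cd28 at 12.04) had a mean level above 7.23, the median over all genes, below which a gene is called dim here. Cd28 is on the plasma-cell list too. Above that level lay 4 of 7 B-lineage markers, 0 of 4 erythroid markers and 4 of 10 stromal and follicular dendritic markers. Pax5, the transduced gene, was among the B-lineage markers above it, but averaged 6.98 with empty vector. Cd79a, Ebf1 and Blk lay below that level. The mean of the T-cell markers was 6.63 to 6.84 in the G183S arrays, 6.60 to 6.86 in the WT arrays and 6.90 to 7.09 in the empty-vector arrays. Of these, Cd4 read 7.09, 9.29 and 7.60 in the empty-vector arrays, 6.40 to 6.77 with G183S and 6.37 to 6.74 with WT, and was not called in limma. Cd3g was called lower with both constructs in limma, at 4.87 to 5.26 with G183S, 4.90 to 5.25 with WT and 5.93 to 6.54 with empty vector. Its G183S call was lost without empty-vector replicate 2 (limma adjusted p = 0.0861) or 3 (0.0619) or G183S replicate 2 (0.0676) or 4 (0.0673), and its WT call without empty-vector replicate 2 (0.0758) or 3 (0.0615) or WT replicate 1 (0.0560). The part of these markers in the results below was not tested. A principal component analysis put 42.2% of the variance on its leading axis. There, G183S replicate 1 (24.8) and WT replicate 1 (39.6) stood apart from the other arrays of their groups (-21.6 to -8.75 for G183S, 17.5 and 2.12 for WT). Calls of the 9 genes that change without either of them are given with the gene.

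The CD20 gene Ms4a1, the CD23 gene Fcer2a and the CD24 gene Cd24a read higher in every array with a Pax5 construct than in every empty-vector array. A gene is called where limma, fitted across all genes and arrays at once, gave a Benjamini-Hochberg adjusted p under 0.05. Of the 9 genes, 3 were called higher with WT than with empty vector (Ms4a1, Fcer2a and Cd24a) and 0 lower, where 0.883% of all genes were called higher and 0.993% lower. With G183S, 1 of 9 was called higher (Ms4a1) and 0 lower, against 0.100% and 0.211% of all genes. Fcer2a and Cd24a did not pass with G183S (limma adjusted p = 0.0501 and 0.0906). Directly compared between the constructs, they did not pass either (limma adjusted p = 0.870 and 0.854). At an unadjusted p under 0.05 in limma, 3 of 9 members passed with G183S and 6 of 9 with WT, where 11.3% and 15.9% of all genes did. Groups did not overlap for 6 members with WT, all higher, where 11.5% of genes were wholly higher and 12.5% wholly lower. With G183S this held for 5 members, all higher, where 5.02% of genes were wholly higher and 6.56% wholly lower. The median log2 difference over the members was 0.48 with G183S and 0.44 with WT, beside medians over all genes of -0.0033 and 0.01. Since the 9 genes were chosen with earlier results of these data known, these counts beside all genes are a description only. Both comparisons share the 3 empty-vector arrays. With 1 array left out at a time, the members called higher numbered 0 to 3 with G183S (0 without empty-vector replicate 2 or 3 or without G183S replicate 2 or 4, and 3 without G183S replicate 1). With WT they numbered 0 to 4: 0 without empty-vector replicate 3, 1 without empty-vector replicate 1 or 2 or G183S replicate 2 or 4, and 4 without G183S replicate 1. With G183S replicate 1 and WT replicate 1 both left out, a setting added after seeing the data, 4 members were called higher with each construct (Ms4a1, Cd24a, Fcer2a and Ly86). In bulk RNA, a larger share of cells with a transcript and more transcript per cell cannot be told apart.

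Ms4a1 was bright in all arrays and higher with both constructs. It read 12.34, 12.60, 11.47 and 12.56 log2 units in the G183S arrays, 12.41, 12.40 and 12.41 in the WT arrays, and 9.30, 10.42 and 10.21 in the empty-vector arrays. Every array with a Pax5 construct lay above every empty-vector array. The WT arrays were almost identical, while G183S replicate 3 lay about 1 unit below the other mutant arrays and empty-vector replicate 1 about 1 unit below the other controls. With WT, Ms4a1 was 5.39-fold higher than with empty vector, with a 95% interval of 3.25 to 8.92 (log2 difference 2.43 ± 0.33 SE, limma adjusted p = 0.0126). With G183S it was 4.81-fold higher, with an interval of 3.0 to 7.71 (log2 difference 2.27 ± 0.30 SE, limma adjusted p = 0.0171). The WT call held with 9 of the 10 arrays left out in turn and was lost without empty-vector replicate 3 (limma adjusted p = 0.0615). The G183S call was lost without empty-vector replicates 2 (adjusted p = 0.0561) and 3 (0.0921) and without G183S replicates 2 (0.0675) and 4 (0.0673). With the replicate number as a block that call was lost too (limma adjusted p = 0.115). The difference itself stayed between 1.93 and 2.52 in the G183S comparison.

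**Figure D1:**
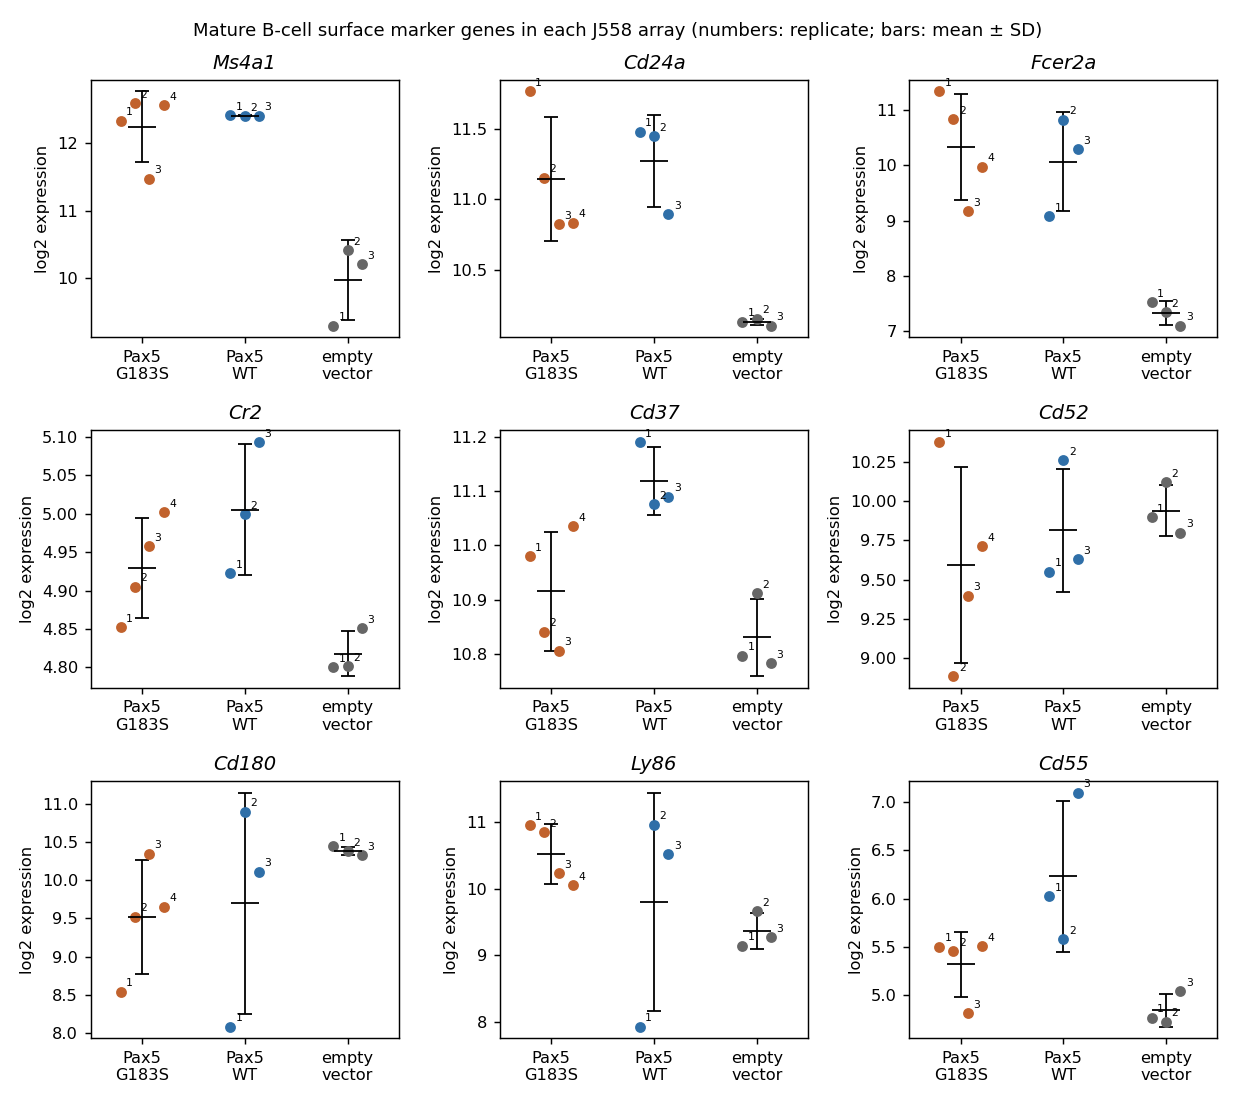
Log2 expression of the 9 genes in each array (vertical axes, scaled per gene), for Pax5 G183S (4 arrays), Pax5 WT (3) and empty vector (3); points are arrays numbered by replicate, and bars are the mean ± SD. Ms4a1, Cd24a and Fcer2a lie above every empty-vector array in all 7 arrays with a Pax5 construct, while Cd180 and Ly86 spread widely among the WT arrays.

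Fcer2a had the largest differences of the 9 genes. It read 11.34, 10.84, 9.17 and 9.98 log2 units in the G183S arrays, 9.08, 10.83 and 10.29 in the WT arrays, and 7.53, 7.35 and 7.11 in the empty-vector arrays. Both Pax5 groups lay wholly above the controls, but their arrays spanned 2.17 units (G183S) and 1.75 units (WT), against 0.42 units among the controls. With WT the gene rose 6.67-fold, with a 95% interval of 2.85 to 15.6 (log2 difference 2.74 ± 0.55 SE, limma adjusted p = 0.0412). With G183S the log2 difference was 3.003 ± 0.51 SE, or 8.02-fold, and it just missed the threshold (limma adjusted p = 0.0501). The WT call was lost without any of the empty-vector replicates (adjusted p = 0.0993, 0.164 and 0.153 for replicates 1, 2 and 3), without WT replicates 2 (0.115) and 3 (0.0856), and without G183S replicates 2 (0.0615) or 4 (0.0651). It was also lost when all probe sets of the table were fitted (0.0724) and with the replicate number as a block (0.0730). The G183S difference passed without WT replicate 1 (adjusted p = 0.0296), G183S replicate 1 (0.0317) or G183S replicate 3 (0.0189).

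Fcer2a has several annotated transcript starts, and the array gives only 1 value for the gene, so the levels above cannot be assigned to a start. RefSeq lists 3 starts on build GRCm38.p6, all on the minus strand. The 250 bases before each of them are shown because this is the member with the largest increase and because they show how unlike these promoter regions are. They read 5′ to 3′ along the gene, with capitals marking the E-box letters CAGGTG, the site type bound by E proteins of the B lineage.
Upstream of the first start, chr8:3694175-3694424: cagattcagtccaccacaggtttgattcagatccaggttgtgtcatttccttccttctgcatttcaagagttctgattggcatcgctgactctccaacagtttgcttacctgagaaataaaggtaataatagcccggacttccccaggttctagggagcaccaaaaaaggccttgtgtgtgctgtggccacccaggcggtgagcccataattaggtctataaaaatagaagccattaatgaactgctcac
Upstream of the second start, chr8:3690862-3691111: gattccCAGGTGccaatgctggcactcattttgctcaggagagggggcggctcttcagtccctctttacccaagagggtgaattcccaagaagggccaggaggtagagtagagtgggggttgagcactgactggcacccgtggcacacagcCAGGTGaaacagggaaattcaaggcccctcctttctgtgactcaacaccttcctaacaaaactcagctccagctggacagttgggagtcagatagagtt
Upstream of the third start, chr8:3690391-3690640: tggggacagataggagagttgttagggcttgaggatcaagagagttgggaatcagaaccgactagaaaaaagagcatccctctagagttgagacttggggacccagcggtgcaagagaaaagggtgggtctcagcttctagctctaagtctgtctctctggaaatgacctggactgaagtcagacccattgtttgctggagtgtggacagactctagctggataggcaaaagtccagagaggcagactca

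The E-box letters occurred 2 times, 244 and 99 bases before the second start, and in neither of the other windows. Promoter windows of 250 bases before to 50 bases after a start were listed for 6 of the 9 genes. The letters were also found 88 bases before the start of Cr2 and 175 bases before that of Cd37, both on the opposite strand. CAGGTG was present, on either strand, in 20.2% of all 32851 windows. The letters GCGTGAC, part of the Pax5 paired-domain motif, and ATTTGCAT, the octamer, were in no window of a member and in 2.09% and 1.74% of all windows. The 3 motifs do not overlap in these windows, and a match or its absence is a description of these letters only.

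Cd24a rose by a smaller amount from a bright and even baseline. Its levels were 11.76, 11.15, 10.82 and 10.83 log2 units in the G183S arrays, 11.48, 11.44 and 10.89 in the WT arrays, and 10.13, 10.15 and 10.11 in the empty-vector arrays. The controls differed by 0.05 units, and each of the 7 Pax5 arrays exceeded them by more than that. With WT the gene was 2.21-fold higher, with a 95% interval of 1.53 to 3.19 (log2 difference 1.14 ± 0.24 SE, limma adjusted p = 0.0454). With G183S the log2 difference was 1.01 ± 0.22 SE and did not pass (limma adjusted p = 0.0906), although it passed without G183S replicate 1, the highest array (0.81, adjusted p = 0.0393). The WT call was lost without empty-vector replicates 1, 2 and 3 (adjusted p = 0.117, 0.171 and 0.158), without WT replicates 1 and 2 (0.134 and 0.126) and without G183S replicates 2 and 4 (0.0738 and 0.0620). It was also lost with each array centred on its median (1.13, adjusted p = 0.0634) and when all probe sets were fitted (adjusted p = 0.0798).

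**Figure D2:**
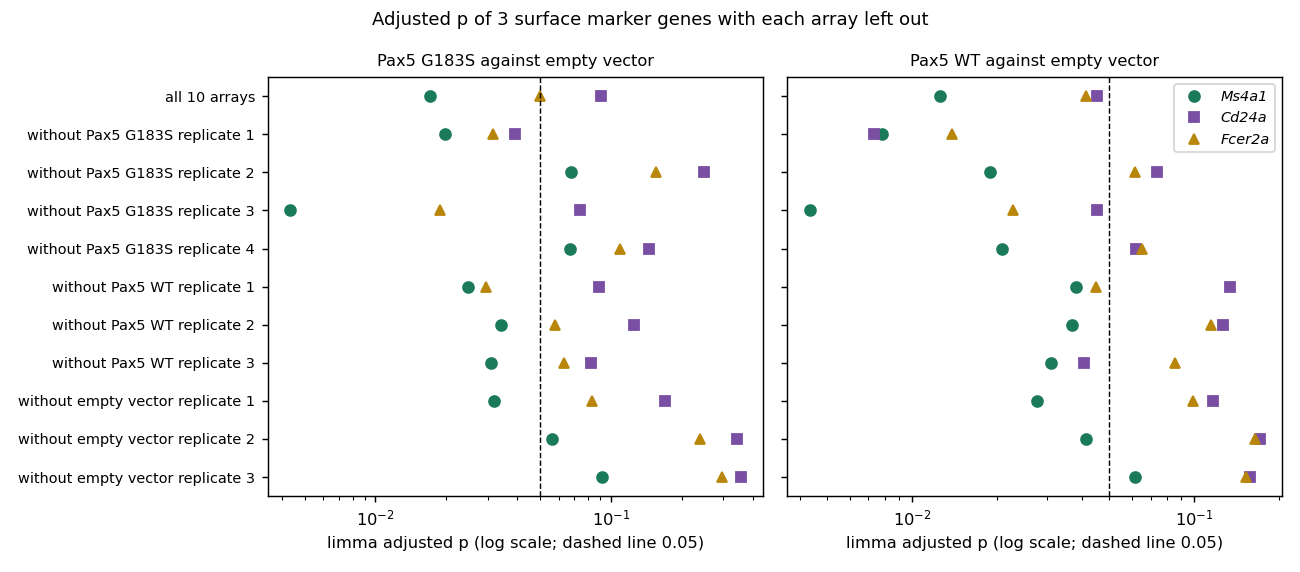
Benjamini-Hochberg adjusted p from limma (horizontal, log scale) for Ms4a1, Cd24a and Fcer2a with all 10 arrays and with each array left out (vertical), for Pax5 G183S (left) and Pax5 WT (right) against empty vector; the dashed line marks 0.05. Ms4a1 stays left of the line in 9 of 10 cases for WT and in 6 of 10 for G183S, and leaving out empty-vector replicates 2 or 3 leaves Cd24a and Fcer2a right of the line in both panels.

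The complement genes were both dim. Cd55 read 5.50, 5.46, 4.81 and 5.50 log2 units in the G183S arrays, 6.02, 5.58 and 7.10 in the WT arrays, and 4.77, 4.72 and 5.04 in the empty-vector arrays. All WT arrays lay above all controls, whereas G183S replicate 3 lay among the controls. The log2 difference was 1.39 ± 0.34 SE with WT (limma adjusted p = 0.0728) and 0.48 ± 0.31 SE with G183S (adjusted p = 0.666), so neither passed. The WT difference passed without WT replicate 2 (1.72, adjusted p = 0.0466) or without G183S replicate 1 (1.39, adjusted p = 0.0467). Cr2 read 4.85 to 5.00 in the G183S arrays, 4.92 to 5.09 in the WT arrays and 4.80 to 4.85 in the empty-vector arrays. Those groups did not overlap between either construct and the controls, but the log2 differences were only 0.11 ± 0.06 SE (G183S, limma adjusted p = 0.592) and 0.19 ± 0.07 SE (WT, adjusted p = 0.210). Background signal was not used here, so whether such low levels lie above it is not known.

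Cd37 was bright in every array and differed little. It read 10.98, 10.84, 10.81 and 11.04 log2 units in the G183S arrays, 11.19, 11.08 and 11.09 in the WT arrays, and 10.80, 10.91 and 10.78 in the empty-vector arrays. The WT arrays lay above both other groups, which overlapped each other. The log2 difference from empty vector was 0.29 ± 0.08 SE with WT (limma adjusted p = 0.105) and 0.09 ± 0.07 SE with G183S (adjusted p = 0.783). Cd52 read 10.38, 8.88, 9.40 and 9.71 in the G183S arrays, 9.55, 10.26 and 9.63 in the WT arrays, and 9.90, 10.12 and 9.80 in the empty-vector arrays. Its groups overlapped, and the differences of -0.35 ± 0.30 SE (G183S, limma adjusted p = 0.785) and -0.13 ± 0.33 SE (WT, adjusted p = 0.894) were of the size of their errors. The WT difference of Cd52 was 0.0047 without WT replicate 1.

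Cd180 and Ly86, whose products form 1 complex, did not move together in all arrays. Ly86 read 10.95, 10.84, 10.23 and 10.05 log2 units in the G183S arrays, 7.93, 10.96 and 10.52 in the WT arrays, and 9.15, 9.66 and 9.27 in the empty-vector arrays. Thus 6 of the 7 Pax5 arrays lay above all controls, and WT replicate 1 lay below all of them. Cd180 read 8.54, 9.53, 10.35 and 9.65 in the G183S arrays, 8.08, 10.90 and 10.11 in the WT arrays, and 10.45, 10.38 and 10.33 in the empty-vector arrays. The controls agreed within 0.11 units, while the Pax5 arrays spread over 1.81 (G183S) and 2.82 (WT) units, mostly downward.

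In WT replicate 1 both genes were low, at 2.31 (Cd180) and 1.43 (Ly86) log2 units under the empty-vector mean. In G183S replicate 1 they parted: Cd180 was 1.85 units under that mean and Ly86 1.59 units above it. In WT replicate 2 both were above it, by 0.51 and 1.60 units. None of the comparisons with empty vector passed. For Ly86 the log2 difference was 1.16 ± 0.60 SE with G183S (limma adjusted p = 0.534) and 0.44 ± 0.64 SE with WT (adjusted p = 0.801). For Cd180 it was -0.87 ± 0.59 SE with G183S (limma adjusted p = 0.685) and -0.69 ± 0.63 SE with WT (adjusted p = 0.661). Without WT replicate 1 the WT differences became 1.38 for Ly86 (adjusted p = 0.0815) and 0.12 for Cd180 (adjusted p = 0.934). Without WT replicate 2 the Ly86 difference was -0.14. With WT replicate 1 and G183S replicate 1 both left out, an alternative chosen after seeing the data, Ly86 passed against empty vector with G183S (1.01, adjusted p = 0.0377) and with WT (1.38, adjusted p = 0.0208).

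**Figure D3:**
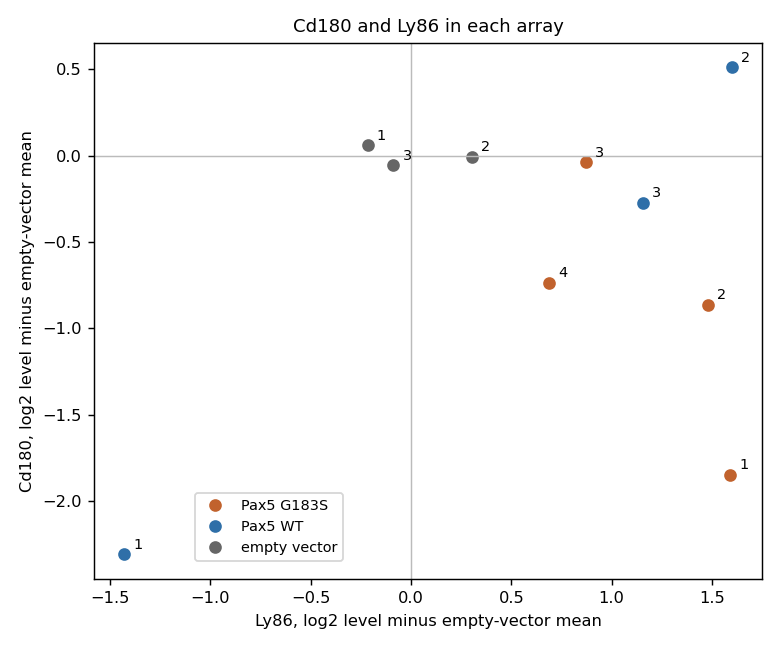
Log2 level minus the empty-vector mean for Ly86 (horizontal) and Cd180 (vertical), 1 point per array, numbered by replicate and coloured by group. The empty-vector arrays sit near the origin, WT replicate 1 lies low for both genes, and G183S replicate 1 lies high for Ly86 and low for Cd180.

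Directly compared, G183S and WT differed in 0 of the 9 genes by limma's adjusted p, as 0% of all genes were called, although 1891 genes (9.48%) had an unadjusted p under 0.05. The members Cd37 and Cd55 were among them, 2 of the 9. In both, all G183S arrays lay below all WT arrays, which held for 4.17% of all genes (2.33% lay wholly above). For Cd55 the log2 difference was -0.91, with a 95% interval of -1.61 to -0.21 (limma adjusted p = 0.499). For Cd37 it was -0.20, with an interval of -0.37 to -0.04 (limma adjusted p = 0.499). Ms4a1 differed by -0.16 (95% interval -0.84 to 0.52), Cd24a by -0.13 (-0.63 to 0.37) and Fcer2a by 0.27 (-0.88 to 1.41), with limma adjusted p = 0.866, 0.854 and 0.870. These intervals allow a mutant level of Ms4a1 between 0.56-fold and 1.43-fold of the WT level, and of Fcer2a between 0.54-fold and 2.66-fold. Cr2 (-0.08), Cd52 (-0.22), Cd180 (-0.18) and Ly86 (0.71) had limma adjusted p = 0.692, 0.816, 0.930 and 0.693. The mean was highest with WT and lowest with empty vector for Ms4a1, Cd24a, Cr2, Cd37 and Cd55, and highest with G183S for Fcer2a and Ly86.

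**Figure D4:**
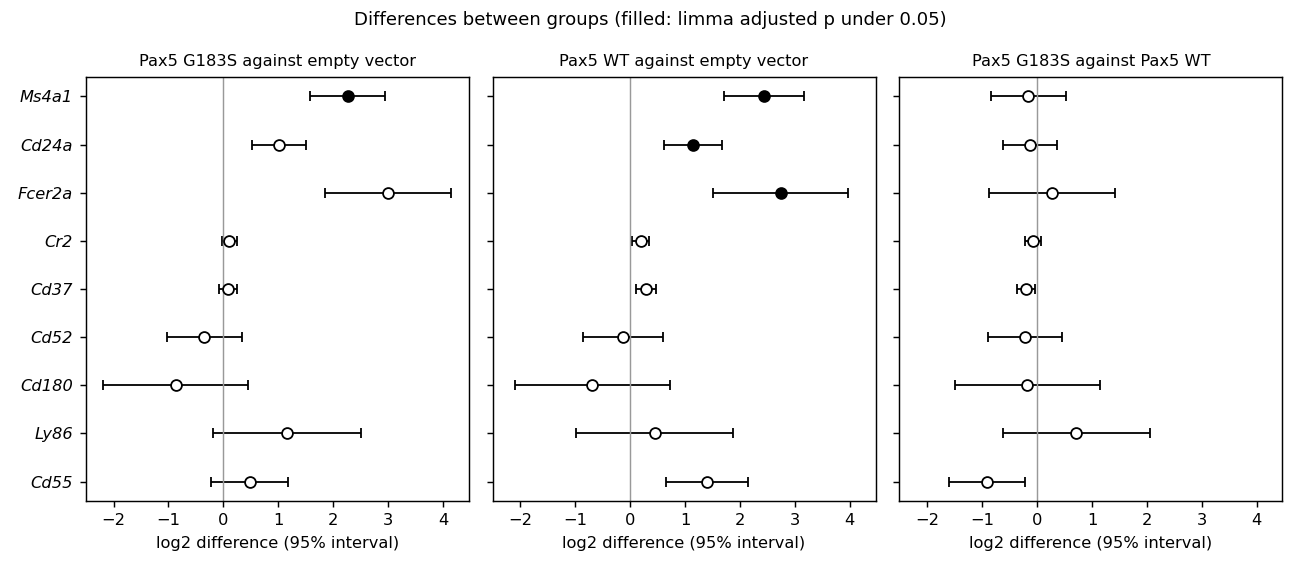
Log2 differences of the 9 genes with 95% intervals from limma (horizontal) for Pax5 G183S against empty vector, Pax5 WT against empty vector and Pax5 G183S against Pax5 WT; filled points have an adjusted p under 0.05. Filled points are Ms4a1 in the first 2 panels and Cd24a and Fcer2a in the second, and no point is filled in the last.

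In each group some array must hold the lowest level of a gene and another the highest, so their placing is a description only. Among the 4 G183S arrays, replicate 3 had the lowest level of 5 of the 9 genes (Ms4a1, Cd24a, Fcer2a, Cd37 and Cd55), and it also had the lowest Pax5 level, 9.38 log2 units. Its level of Cd180 was the highest of the mutant arrays. G183S replicate 1 had the highest Cd24a, Fcer2a, Cd52 and Ly86. Among the WT arrays, replicate 1 had the lowest Fcer2a, Cr2, Cd52, Cd180 and Ly86 and the highest Ms4a1, Cd24a and Cd37, and its Pax5 level, 10.67, was the highest of all arrays. Among the empty-vector arrays, replicate 3 likewise had the lowest level of 5 of the 9 genes (Cd24a, Fcer2a, Cd37, Cd52 and Cd180). Of the 9 members, 8, 6, 5 and 7 lay above every control in G183S replicates 1 to 4, and 6, 9 and 7 in WT replicates 1 to 3. Below every control lay 1, 2, 1 and 2 members in the G183S arrays and 3, 0 and 2 in the WT arrays. Over all genes, 27.0% to 33.3% lay above every control in a G183S array and 32.3% to 33.3% in a WT array, while 29.1% to 33.1% and 29.7% to 33.1% lay below. Whether the amount of Pax5 plays a part in these array differences was not tested.

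The genes most like each rising member over the 10 arrays were found by the root mean square difference of log2 levels after centring each gene on its own mean. For Ms4a1 these were Irf8 (0.36), a transcription factor of B and myeloid cells, H2-Ob (0.38), a chain of the MHC class II accessory molecule DO, and Bin1 (0.47), a membrane-shaping protein. The spread of Ms4a1 itself on that scale was 1.14. For Fcer2a they were H2-Eb2 (0.57), an MHC class II beta chain gene, Pax5 (0.69) and Bin1 (0.70), beside its own spread of 1.49. For Cd24a they were Snx2 (0.21), a sorting nexin, Far1 (0.22), an enzyme that makes fatty alcohols, and Top1 (0.23), a DNA topoisomerase, beside its own spread of 0.57. Ms4a1 and Fcer2a were each other's nearest member (0.72), and the nearest member to Cd24a was Cd37 (0.49). These are distances over arrays of 3 groups, so genes that differ between groups in the same way come out as alike.

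**Figure D5:**
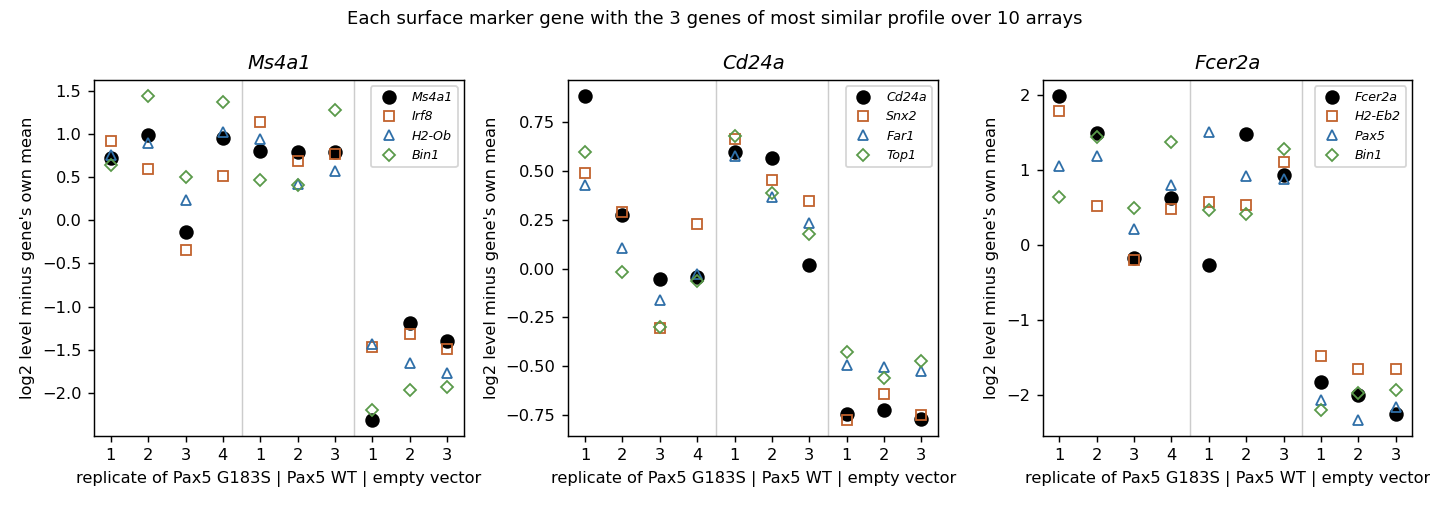
Log2 level minus each gene's own mean over the 10 arrays (vertical) for Ms4a1, Cd24a and Fcer2a (filled circles) and the 3 genes nearest to each (open symbols), by array from Pax5 G183S through Pax5 WT to empty vector (horizontal, split by grey lines). All 4 genes of each panel are lowest with empty vector, and among the G183S arrays all 4 of each panel are lowest in replicate 3.

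Relatives and partners of the 9 genes mostly did not pass. Of 15 other MS4A genes, 0 passed in limma against empty vector with either construct, and at an unadjusted p under 0.05 the numbers were 1 with G183S and 0 with WT. With G183S the smallest adjusted p was that of Ms4a7 (0.17, adjusted p = 0.416), named after its value was seen. With WT the smallest were those of Ms4a15 (0.17, adjusted p = 0.384; 0.16 with G183S, adjusted p = 0.518) and Ms4a3 (0.22, adjusted p = 0.394; 0.02 with G183S, adjusted p = 0.982). Of 17 other tetraspanins, 1 was called lower with each construct, where 0.211% of all genes were with G183S and 0.993% with WT. At an unadjusted p under 0.05 in limma, 6 passed with G183S and 3 with WT, where 11.3% and 15.9% of all genes did. The one called was Tspan14, a partner of the protease ADAM10. Tspan14 read 9.77 to 10.37 log2 units with G183S, 9.66 to 10.11 with WT and 11.27 to 11.42 with empty vector. Its log2 differences were -1.33 ± 0.14 SE (G183S, limma adjusted p = 0.00625) and -1.43 ± 0.15 SE (WT, adjusted p = 0.00646). Leaving out empty-vector replicate 2 (adjusted p = 0.0561) or 3 (0.0619) ended the G183S call of Tspan14, and leaving out empty-vector replicate 3 (0.0538) ended its WT call. Cd82, another tetraspanin, differed by 0.91 with G183S (adjusted p = 0.224) and 0.33 with WT (adjusted p = 0.668).

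Among 18 Fc receptor and IgE receptor regulator genes, 1 rose with G183S and 2 with WT, where 0.100% and 0.883% of all genes were called higher. At an unadjusted p under 0.05 in limma, 4 passed with G183S and 5 with WT, where 11.3% and 15.9% of all genes did. Fcgr2b, the inhibitory IgG receptor of B cells, read 12.07 to 12.27 log2 units with G183S, 12.02 to 12.59 with WT and 10.10 to 10.50 with empty vector (log2 differences 1.89 and 1.91, limma adjusted p = 0.00117 and 0.00142). Both calls held with each of the 10 arrays left out in turn. Il4ra, the receptor chain for interleukin 4, which induces CD23 in B cells, read 7.98 to 8.36 with G183S, 8.11 to 8.67 with WT and 7.57 to 7.66 with empty vector. It rose with WT (0.85 ± 0.15 SE, limma adjusted p = 0.0254), while its G183S difference of 0.55 ± 0.14 SE did not pass (adjusted p = 0.123). The WT call of Il4ra was lost without empty-vector replicates 1, 2 or 3 (adjusted p = 0.0711, 0.119 and 0.117) and without WT replicates 1 or 3 (0.0834 and 0.0566). Of 3 lectins that can bind CD24 or CD52, 1 rose with WT and 0 with G183S (1 with each at an unadjusted p under 0.05 in limma). Siglecg, an inhibitory lectin of B cells that binds CD24, read 7.39 to 7.81 with G183S, 8.29 to 8.88 with WT and 6.74 to 6.85 with empty vector. Its log2 differences were 0.74 (G183S, limma adjusted p = 0.0762) and 1.69 (WT, adjusted p = 0.00324), and that between the constructs was -0.95 ± 0.15 SE (adjusted p = 0.263). The WT call held with each array left out, and the G183S difference passed without WT replicate 1 (adjusted p = 0.0218). The difference between the constructs passed without G183S replicate 1 (adjusted p = 0.0111), and without it and WT replicate 1 together (-0.84, adjusted p = 0.00676). Siglece, an inhibitory lectin of myeloid cells, differed by -0.01 (G183S) and 0.01 (WT).

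The remaining lists had few calls. Of the measured complement receptors and regulators, 0 of 12 passed with either construct (2 with each at an unadjusted p under 0.05), and Cd59a, another complement regulator, had -1.47 (G183S, limma adjusted p = 0.188) and -1.64 (WT, adjusted p = 0.119). Cd93, a surface lectin of early B and myeloid cells, had -0.39 (adjusted p = 0.491) and -0.66 (adjusted p = 0.131). Of 4 co-receptor partners of CD21, 0 passed (0 with G183S and 1 with WT unadjusted), with Cd81 at -0.20 (G183S, limma adjusted p = 0.757) and -0.41 (WT, adjusted p = 0.279), and Ifitm1 at -0.01 and -0.29. Of the Toll-like receptors and their partners 0 of 18 passed (3 with G183S and 4 with WT unadjusted). Unc93b1, which carries such receptors to endosomes, had -0.26 (G183S, limma adjusted p = 0.255) and -0.31 (WT, adjusted p = 0.137), and Tlr2 -0.12 and -0.44. Of the GPI anchor synthesis genes 0 of 27 passed (4 with G183S and 7 with WT unadjusted), with Dpm3 at 0.11 (G183S, limma adjusted p = 0.726) and 0.36 (WT, adjusted p = 0.0690) and Pgap2 at -0.51 (adjusted p = 0.0762) and -0.37 (adjusted p = 0.132). Without G183S replicate 1, Dpm3 passed with WT (limma adjusted p = 0.0399) and Pgap2 with G183S (adjusted p = 0.0297).

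Of 37 other surface genes of mature B cells, 0 passed with G183S in limma, and with WT 2 rose and 1 fell. Over all genes, 0.883% were called higher and 0.993% lower with WT. At an unadjusted p under 0.05 in limma the numbers were 9 with G183S and 13 with WT, where 11.3% and 15.9% of all genes passed. Those that rose were Il4ra and Slamf6, an adhesion receptor of lymphocytes, which read 5.46 to 6.43 log2 units with G183S, 6.89 to 7.77 with WT and 5.27 to 5.62 with empty vector. Its log2 difference was 1.92 ± 0.26 SE with WT (limma adjusted p = 0.0131) and 0.41 ± 0.25 SE with G183S (adjusted p = 0.624). The one that fell was Ly6e, a GPI-anchored protein, at 12.54 to 13.11 with G183S, 11.54 to 12.09 with WT and 12.71 to 12.84 with empty vector (WT difference -1.01 ± 0.16 SE, limma adjusted p = 0.0225). Between the constructs neither passed (Slamf6 -1.52, Ly6e 0.98, limma adjusted p = 0.263 each), although their G183S and WT arrays did not overlap. Without G183S replicate 1 both passed (adjusted p = 0.00913 for Slamf6 and 0.0160 for Ly6e), as they did without it and WT replicate 1 together (0.0133 and 0.0338). Leaving out empty-vector replicate 2 (adjusted p = 0.0813) or 3 (0.0639) ended the WT call of Slamf6 against empty vector. That of Ly6e was lost without empty-vector replicates 1, 2 or 3 (adjusted p = 0.0697, 0.101 and 0.103) and without WT replicates 1 or 2 (0.0691 and 0.0634). The median log2 difference of these 37 genes was 0.07 with G183S and 0.11 with WT, beside all-gene medians of -0.0033 and 0.01.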

How the data were processed

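RNA of 10 J558 cultures was hybridised to 1 Affymetrix array each, from 100 ng of total RNA. The authors deposited log2 values, 1 per probe set and array. The submitters' processing notes list RMA and Partek without a version, and the genome build is not given in the sources used here. Scan dates and background signal were not used here.

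Of 34760 probe sets, 21640 carried a single gene symbol, 1321 several and 11799 were not listed in the platform annotation. The probe set with the highest mean was used for each of 19937 genes. The 3 comparisons were tested in 1 fit of all 10 arrays with limma 3.58.1 in R 4.3.3 (lmFit, eBayes, two-sided), with Benjamini-Hochberg adjustment over all 19937 genes and a threshold of 0.05. The script was tested on simulated data.

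All 9 members are named, with Pax5, up to 2 genes per related list by smallest adjusted p, and the 3 genes closest in profile to each called member. Members and lists were chosen with earlier results of these data known. Of 222 list entries, 206 were matched by symbol, and the others were not analysed here. Promoter sequences came from RefSeq (GRCm38.p6).

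The main fit did not pair arrays by replicate number. Deviations from the group means correlated at -0.16 to 0.51 for same-numbered arrays of different groups, and at -0.58 to 0.29 for differently numbered ones. The highest values were those of G183S with WT replicate 1 (0.51) and G183S with WT replicate 3 (0.455). Whether same-numbered arrays share an effect was not tested. Alternatives changed the normalization, the filter on dim genes, the probe sets fitted, the samples, the variance model, the array weights and the replicate block, and left out single arrays. Leaving out WT replicate 1 and G183S replicate 1 together, and the same settings for related genes, were added after seeing the data.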

Additional observations from a re-analysis of the deposited data

Results flagged for a closer look

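Cd55 in G183S replicate 3, at 4.81 log2 units, lay far below the other mutant arrays (5.46 to 5.50). Its gap to the nearest of them was 0.931 of the whole range of the group, more than the 95% critical value of Dixon's test for groups of 4. The 4 G183S arrays were examined in this way for the 9 genes and Pax5; groups of 3 were not. Chance marks about 1 in 20 groups.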

How the results depend on the processing

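Of 507 differences of single members under an alternative, 447 kept their direction and side of the threshold, 24 lost the call, 16 gained one and 20 changed sign. The count of members called higher with G183S (1) was 2 with dim genes left out and with only the 2 groups fitted, 3 with array weights, 0 with the replicate block (Ms4a1 2.16, adjusted p = 0.115), 4 without WT replicate 1 and G183S replicate 1, and 0 to 3 with single arrays left out. That with WT (3) was 1 over all probe sets (Cd24a and Fcer2a lost, adjusted p = 0.0798 and 0.0724), 5 with array weights (adding Cd37 and Cd55), 2 with the replicate block (Fcer2a lost, adjusted p = 0.0730), 4 without both arrays and 0 to 4 with single arrays left out. Between G183S and WT it stayed 0 throughout. Sign changes were, with array weights, Cd52 0.19 and Cd180 0.145 with WT against empty vector, and Fcer2a -0.25 and Ly86 -0.12 between G183S and WT. Without both arrays these 4 values were 0.0047, 0.12, -0.56 and -0.37. With single arrays left out, differences between G183S and WT ranged from -0.28 to 0.092 for Ms4a1, -0.23 to 0.65 for Fcer2a, -0.48 to 0.016 for Cd52, -0.99 to 0.42 for Cd180 and -0.22 to 1.29 for Ly86. Those between WT and empty vector ranged from -0.35 to 0.0047 for Cd52, -1.29 to 0.12 for Cd180 and -0.14 to 1.38 for Ly86. The cause of these changes was not tested.

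Over all genes, 20 were called higher and 42 lower with G183S against empty vector, but 721 and 728 with array weights, 6 and 4 with the block, 418 and 472 without both arrays, and 6 to 143 and 2 to 152 with single arrays left out. With WT, 176 and 198 became 1115 and 1461 with weights, 100 and 128 with the block, 86 and 103 over all probe sets, and 6 to 369 and 0 to 664 with single arrays left out. Median centring gave 102 higher, the 2 groups alone 356 lower, and leaving out both arrays 435 lower. Between G183S and WT the 0 calls became 1655 higher and 1097 lower with weights, 2 lower with the block, 310 and 109 without both arrays, and 0 to 811 and 0 to 302 with single arrays left out. Cr2 and Cd55 were too dim to be tested with dim genes left out, and 1 probe set per member leaves no second reading.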
